A study of Talpa occidentalis with 24 samples.

Results

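In the ovarian part of the mole ovotestis, 937 segments called promoter were bivalent or under Polycomb repression over at least 50% of their bases in testicular tissue. They were chosen by chromatin state from 15724 ovarian promoter segments of at least 400 bp outside scaffolds 15 and 18, of which they make up 5.96% (Wilson 95% interval 5.6 to 6.34%, counting error only). On all scaffolds there were 16183 such segments. To be a member, a segment needed the bivalent promoter or the Polycomb repression state over at least 50% of its bases in the testicular part of the ovotestis or in testis.

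The animals were wild-type Iberian moles, Talpa occidentalis, at postnatal day 7. In female moles the gonad is an ovotestis, part ovary and part testis-like tissue. Histone marks were mapped by chromatin immunoprecipitation and sequencing (ChIP-seq) in 3 tissues, namely the ovotestis' ovarian part (ovarian tissue below), its testicular part, and the male testis, with 8 libraries each from 4 marks (H3K4me3, H3K4me1, H3K27ac and H3K27me3) and 2 replicates per mark. The gonads were fixed in formaldehyde before sonication. The source label of each library names a tissue, so its cell types are taken here to have entered the library together. The labels do not say how many animals gave a library. The authors deposited 1 table per tissue that gives each 200 bp bin of the assembly talOcc4 1 of 7 states, which are 2 promoter states (promoter and bivalent promoter), 2 enhancer states (active and poised), Polycomb repression, undefined, and gap. With 1 table per tissue there are no replicates at this level and no read depth, so no difference between tissues below was tested, and differences between tissues cannot be told apart from differences between their libraries.

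Polycomb group proteins keep genes silent, and the complex PRC2 does so by placing H3K27me3, a methyl mark on histone H3. H3K4me3 marks promoters that are active or ready for activity, and a promoter that carries both marks is called bivalent, a state well known from developmental regulator genes in stem cells and embryos. In the early gonad, cells choose between an ovarian and a testicular fate, and genes of the fate not taken are kept silent. In bulk tissue a bivalent call cannot tell cells that carry both marks from a mixture of cells with one mark each, and a mark in fewer cells cannot be told apart from less of it per cell.

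The gene models deposited with the series and the reference gene table lie on other assemblies, so members are named by scaffold and position on talOcc4, counted from 1. No gene is given for any of them, and the tissue labels were not checked against marker genes here. No promoter sequence of this assembly was used.

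The 3 tissues differed in how much of the genome was called repressed. Outside scaffolds 15 and 18, the bivalent and Polycomb states together covered 5.7% of 1991 Mb in ovarian tissue, 5.54% in the testicular part and 8.71% in testis. The promoter state took up 0.664% in ovarian tissue, 0.587% in the testicular part and 0.575% in testis. A higher share of members through the testis thus stands beside a larger repressed area there, and its part in the counts below was not tested.

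In the testicular part, 605 of the 15724 ovarian promoters were repressed or bivalent, which is 3.85%. In testis, 747 were, which is 4.75%. Both tissues met the limit at 415 promoters, 2.64% of all. These 415 are 68.6% of those chosen through the testicular part and 55.6% of those chosen through the testis. A further 190 members met it in the testicular part only and 332 in testis only. All of these counts follow from the rule and are a description.

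The same count was made in every direction between the tissues, on promoter segments of the same minimum length. Ovarian promoters were repressed or bivalent in the testicular part in 605 of 15724 cases (3.85%, Wilson 95% interval 3.56 to 4.16%), against 138 of 13551 promoters of the testicular part in ovarian tissue (1.02%, 0.863 to 1.2%). Ovarian promoters were repressed or bivalent in testis in 747 of 15724 cases (4.75%, 4.43 to 5.09%), against 141 of 13496 testis promoters in ovarian tissue (1.04%, 0.887 to 1.23%). Between the testicular tissues, 284 of 13551 promoters of the testicular part (2.1%) were repressed or bivalent in testis and 251 of 13496 testis promoters (1.86%) in the testicular part. The shares with the promoter state in ovarian tissue were therefore above both shares in the reverse direction, and the shares between the testicular tissues lay in between. These shares rest on the same 3 tables and are not independent of each other.

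Within the members, both repressive states took large shares of the bases. Over the bases of all 937 members, 29.7% were bivalent and 28.4% under Polycomb repression in the testicular part, and 22.3% had the promoter state. In testis, 40.9% were bivalent, 31.2% were under Polycomb repression and 17% had the promoter state. Among the other 14787 ovarian promoters, 78.5% of bases had the promoter state in the testicular part and 76.7% in testis, and the active enhancer state took most of the remainder, with 14.5% in the testicular part and 17.2% in testis. At those promoters the bivalent and Polycomb states together held 0.311% of bases in the testicular part and 0.41% in testis, values that the rule keeps low.

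**Figure D1:**
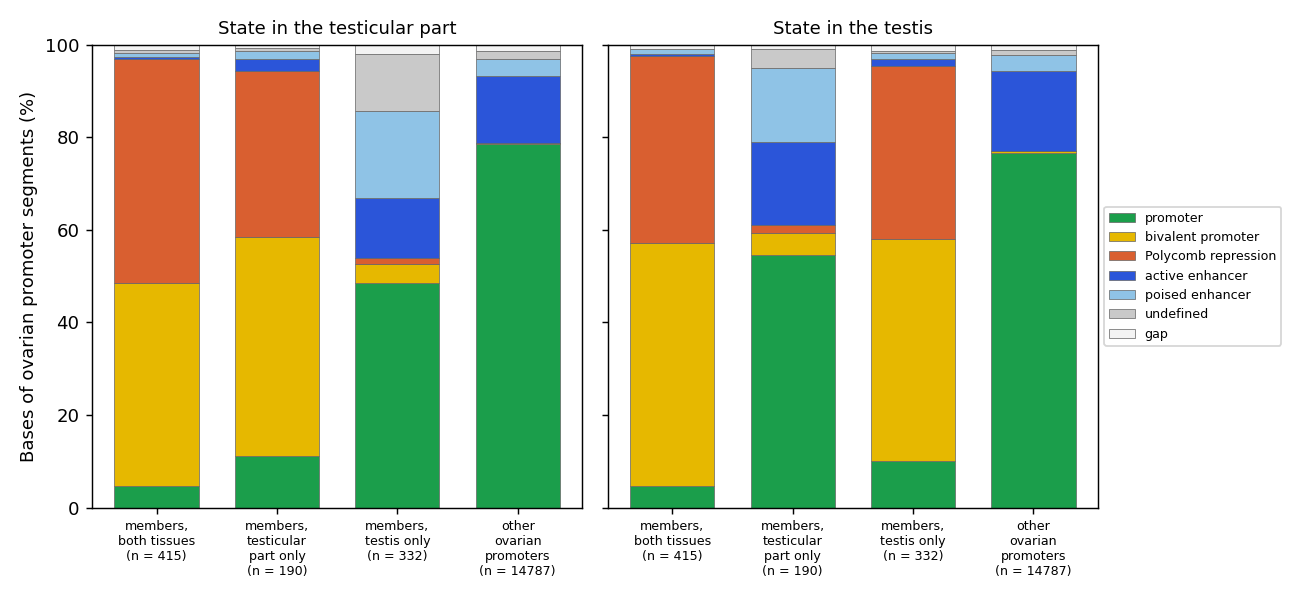
Percent of the bases of ovarian promoter segments in each of 7 states in the testicular part (left) and in testis (right). Bars are members repressed or bivalent in both tissues (n = 415), in the testicular part only (n = 190) or in testis only (n = 332), and other ovarian promoters (n = 14787). In members chosen through 1 tissue only, the promoter state was the most common state in the other tissue, with 54.6% of bases in testis and 48.6% in the testicular part.

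Taken member by member, the bivalent state led more often than Polycomb repression in testis, and both led about as often in the testicular part. Of the 605 members of the testicular part, 273 had more bivalent than Polycomb bases, 256 more Polycomb than bivalent bases, and 76 equal shares. Of the 747 members of the testis, 392 were mostly bivalent, 258 mostly Polycomb and 97 equal. In the 415 promoters shared by both, 149 were mostly bivalent in both tissues and 121 mostly Polycomb in both, so that 270 (65.1%) had the same leading state. Different leading states in the testicular part and the testis were mostly of one kind, with 57 promoters mostly Polycomb in the testicular part and mostly bivalent in testis, and 12 with the opposite order.

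Most members were repressed or bivalent over their whole length. In the testicular part 472 of 605 were covered completely (78%), and in testis 565 of 747 (75.6%). Of the 415 shared members, 303 (73%) were covered completely in both, among them 85 wholly under Polycomb repression and 60 wholly bivalent in both tissues. At the other end, 94 members (10%) held exactly 50% in the tissue where their share was highest, and 68 of these were segments of 400 bp, in which 1 of the bins decides. Examples just inside the limit are the segments on scaffold 1 at 44190801 to 44191200, with 50% Polycomb in the testicular part and the promoter state throughout in testis, and at 46632201 to 46632600, with 50% bivalent and 50% promoter in the testicular part. Just outside lay a 3000 bp segment on scaffold 8 at 59972601 to 59975600 with 46.7% bivalent bases in the testicular part, and a 2600 bp segment on scaffold 4 at 146409201 to 146411800 with 46.2%. Of the other ovarian promoters, 215 (1.45%) held any repressive base, 142 of them over 25 to 50% of their bases and 26 over 40 to 50%, a range that segments of 400 to 800 bp cannot fall in because they are made of whole bins.

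Members that met the limit in a single testicular tissue were examined in the other one, where the rule set only that the share stayed under 50%. Of the 190 members of the testicular part only, 124 (65.3%) carried the promoter state over at least 50% of their bases in testis, against 83.6% of the other ovarian promoters. Promoter and active enhancer together reached that limit in 151 (79.5%), against 95% of the others, and 53 (27.9%) had no promoter base in testis, against 13.3% of the others. Of the 332 members of the testis only, 177 (53.3%) carried the promoter state over at least 50% of their bases in the testicular part, against 84.5% of the other ovarian promoters. Promoter and active enhancer together reached it in 218 (65.7%), against 94% of the others, and 133 (40.1%) had no promoter base in the testicular part, against 12.5% of the others. Most of these members were thus in active states in the other tissue, but a smaller share of them than of the other ovarian promoters.

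The remaining members of a single tissue were mainly poised or undefined in the other. The poised enhancer state held at least 50% of 32 of the 190 in testis and of 75 of the 332 in the testicular part, and the undefined state 47 of the 332. Any repressive base was found in testis in 32 of the 190 (16.8%), against 152 of the other ovarian promoters (1.03%), and in the testicular part in 43 of the 332 (13%), against 102 of the others (0.69%). The other 158 of 190 and 289 of 332 stood at 0%.

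In the 1 kb on each side of the segments, the promoter state was also less common around shared members than around the other ovarian promoters. The flanks leave out the bases that the rule used. In the testicular part and testis they still adjoin the bases that chose the members, so those values are a description only. At least 1 repressive bin lay in them at 98.3% of shared members in the testicular part and 97.8% in testis. These flanks held no promoter base at 265 of the 415 shared members (63.9%) in ovarian tissue, 356 (85.8%) in the testicular part and 354 (85.3%) in testis. At the other ovarian promoters this was so for 7109 (48.1%) in ovarian tissue, 5969 (40.4%) in the testicular part and 6153 (41.6%) in testis. For members of the testicular part only, the flanks held no promoter base at 51.1% in ovarian tissue, 78.9% in the testicular part and 55.8% in testis, and for members of the testis only at 56% in ovarian tissue, 59.3% in the testicular part and 79.2% in testis. Counting the segment itself, which the rule bears on, the nearest promoter base lay at a median distance of 36300 bp from a shared member in the testicular part and 42900 bp in testis.

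Members more often had the minimum length than the other ovarian promoters. Their median length was 600 bp, as it was for the other ovarian promoters, but 437 members (46.6%) had the minimum length of 400 bp, against 4882 (33%) of the others. At the long end, 153 members (16.3%) reached 1000 bp, against 4130 (27.9%) of the others. The share of ovarian promoters that were members was 8.22% at 400 bp, 5.87% at 600 bp, 5.32% at 800 bp, 3.38% at 1000 bp, 3.59% at 1200 to 1400 bp, 2.87% at 1600 to 1800 bp, and 4.83% (29 of 600) at 2000 bp or more. Short segments need fewer bins to meet the limit, and the part of this in the order of shares was not tested.

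The 10 longest members show the range of the class. The longest, on scaffold 5 at 78930201 to 78937600, spans 7400 bp. It carried the promoter state throughout in the testicular part, while in testis 54.1% of it was bivalent and 45.9% promoter. The next, 4200 bp on scaffold 1 at 44442401 to 44446600, was 52.4% repressed or bivalent in the testicular part and 95.2% active enhancer in testis. A 4000 bp segment on scaffold 7 at 15278401 to 15282400 was 85% bivalent in the testicular part and 100% bivalent in testis, and the surrounding 50 kb on each side held promoter or active enhancer over 25.8% of bases in ovarian tissue, 28.2% in the testicular part and 17.4% in testis. A 3600 bp segment on scaffold 12 at 34930201 to 34933800 was 66.7% repressed or bivalent in the testicular part and 100% in testis, in surroundings with little activity, where 0.6% of bases were active in ovarian tissue, 1% in the testicular part and 0% in testis.

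The other 6 of the 10 had lengths of 3000 to 3400 bp. Some were bivalent in testis only, and others were repressed in both tissues. The segments on scaffold 9 at 32085401 to 32088600 and on scaffold 13 at 40170001 to 40173200 both carried the promoter state over 87.5% of bases in the testicular part, and were bivalent over 62.5% and 93.8% of bases in testis. The segment on scaffold 1 at 48027801 to 48030800 was 60% promoter and 33.3% bivalent in the testicular part and 93.3% bivalent in testis. By contrast, the segment on scaffold 9 at 74164801 to 74167800 was 46.7% Polycomb and 33.3% bivalent in the testicular part and 100% Polycomb in testis, and that on scaffold 8 at 8635001 to 8638200 was 81.2% bivalent in both. The remaining segment, on scaffold 19 at 3582201 to 3585600, was undefined throughout in the testicular part and Polycomb throughout in testis.

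A set of 151 members was covered completely in both tissues with Polycomb repression over at least 50% in both. The 5 longest of these were 1200 to 1600 bp. The segment on scaffold 7 at 24515601 to 24517000 was Polycomb over 100% of its 1400 bp in both tissues, inside Polycomb and bivalent runs of 6000 bp in the testicular part and 11400 bp in testis. On scaffold 19, the segment at 1552801 to 1554000 lay in a run of 15000 bp in each tissue. On scaffold 17, the segment at 32911801 to 32913000 lay in runs of 1400 bp in the testicular part and 2600 bp in testis. Promoter or active enhancer states covered at most 6.6% of the 50 kb on each side of these 5 segments in ovarian tissue, a value reached at the segment on scaffold 17.

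The states beside the members in ovarian tissue were not used by the rule, and they are set beside those of the other ovarian promoters without a test, because segments of 1 segmentation are not replicates. In ovarian tissue, 311 of 937 members (33.2%, Wilson 95% interval 30.2 to 36.3%) directly touched a bivalent or Polycomb segment, against 180 of 14787 other ovarian promoters (1.22%, 1.05 to 1.41%). The share was highest in the shared class, with 197 of 415 (47.5%), and lower in members of the testicular part only, with 35 of 190 (18.4%), and of the testis only, with 79 of 332 (23.8%). An active enhancer segment adjoined 451 members (48.1%), against 12495 of the others (84.5%). The gap state, whose meaning no source used here explains, adjoined 695 members (74.2%) and 11342 of the others (76.7%).

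The difference in neighbours was present at each segment length. At a length of 400 bp, 35% of 437 members touched a bivalent or Polycomb segment, against 1.37% of 4882 other ovarian promoters. At 600 bp the shares were 32% of 228 members and 0.929% of 3658 others, and at 800 bp they were 36.1% of 119 members and 1.13% of 2117 others. At 1000 bp or more they were 27.5% of 153 members and 1.33% of 4130 others. The leading repressive state of a member made a smaller difference, since 94 of the 273 members mostly bivalent in the testicular part (34.4%) and 112 of the 256 mostly Polycomb there (43.8%) touched such a segment in ovarian tissue. By the leading state in testis the shares were close, with 144 of 392 mostly bivalent members (36.7%) and 98 of 258 mostly Polycomb ones (38%).

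Over 2 kb on each side, bivalent and Polycomb bases made up 26% in ovarian tissue, 50.8% in the testicular part and 58.6% in testis around members, against 1.83% in ovarian tissue, 2.92% in the testicular part and 4.26% in testis around the other ovarian promoters. At least 1 such bin lay within 2 kb of 535 members (57.1%) in ovarian tissue, 789 (84.2%) in the testicular part and 862 (92%) in testis. For the other ovarian promoters it was 893 (6.04%) in ovarian tissue, 1375 (9.3%) in the testicular part and 1998 (13.5%) in testis. The active enhancer state covered 13.2% of the members' 2 kb flanks in ovarian tissue, 5.57% in the testicular part and 5.66% in testis, against 29.1% in ovarian tissue, 30.4% in the testicular part and 32.8% in testis for the others. Around members, repressive states were thus found more often than around the other promoters in ovarian tissue as well, where the members themselves had the promoter state. The flanks in testicular tissue adjoin the bases that chose the members and are a description only.

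**Figure D2:**
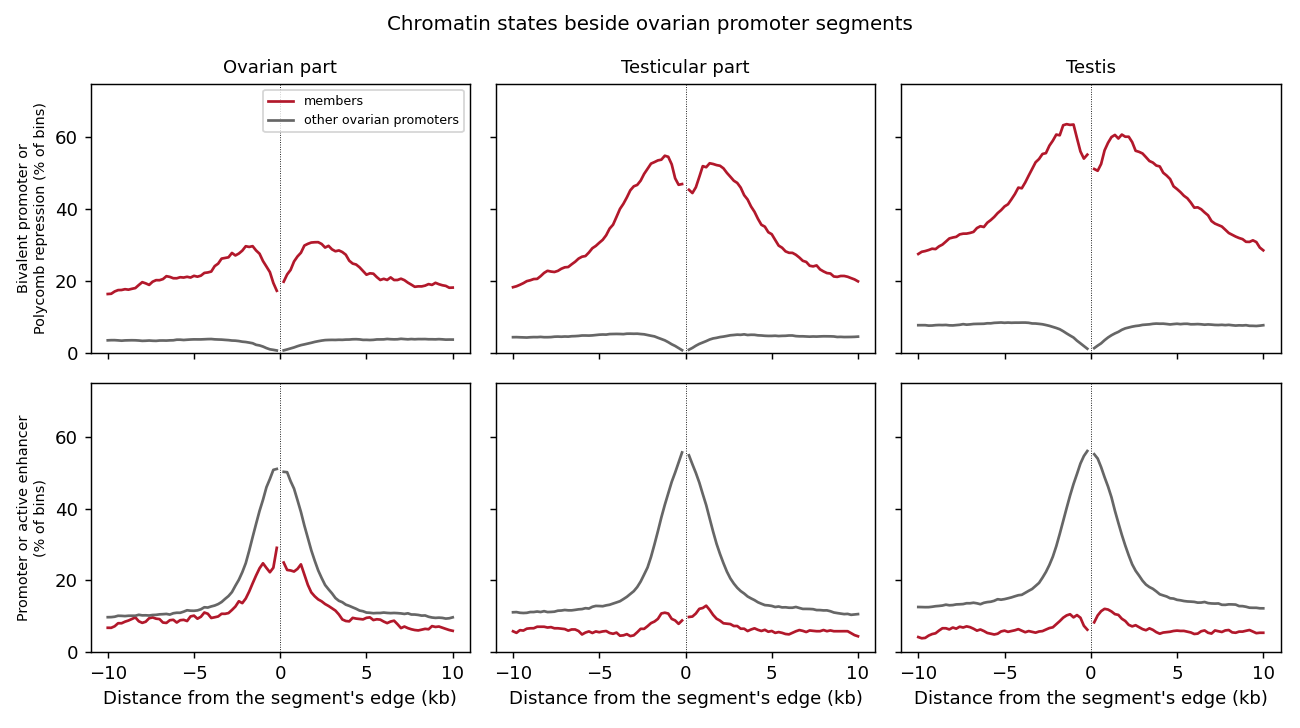
Percent of 200 bp bins in the bivalent promoter or Polycomb repression state (top) and in the promoter or active enhancer state (bottom), by distance in kb from the segment's edge on each side, in ovarian tissue, the testicular part and the testis. Around members (red, n = 937) the repressive share, averaged over both sides, was highest at 2 kb in ovarian tissue (30.2%), 1.2 kb in the testicular part (53.3%) and 1.4 kb in testis (62.2%), and on either side it stayed at or below 8.41% around other ovarian promoters (grey, n = 14787).

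The profile by distance dipped beside the segment in every tissue. In the testicular part the repressive share around members was 46.2% in the first bin and 53.3% at its highest. In testis it was 53.2% in the first bin and 62.2% at its highest. In ovarian tissue the gap state held 39.3% and 42.5% of the members' first bins on the 2 sides. At 2 kb it held 7.38% and 6.02%, and its part in the dip was not tested. In the first bin on each side, 18.5% of bins were repressive around members in ovarian tissue, against 30.2% at 2 kb from the edge and 17.2% at 10 kb, each averaged over both sides. The other ovarian promoters had 0.626% in the first bin and 3.54% at 10 kb. Active states stood at 27.1% in the members' first bin and 6.39% at 10 kb in ovarian tissue, against 50.7% in the first bin and 9.75% at 10 kb for the others. Active states were thus less frequent beside members than beside the other promoters, and repressive states more frequent, in ovarian tissue itself.

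In testicular tissue most members lay in or overlapped a repressive stretch longer than the segment itself. A run is the longest unbroken stretch of bivalent and Polycomb bins that shares a bin with the member, ended by any other state, gap bins included. The run was longer than the segment for 561 of 605 members (92.7%) in the testicular part and 693 of 747 (92.8%) in testis, and shorter for 22 in the testicular part and 19 in testis. At completely covered members the rule fixes that the run is at least as long as the segment. At members covered in part it was longer for 110 of 133 in the testicular part and 155 of 182 in testis. Over the 605 members of the testicular part, the median run was 4000 bp, 81 runs (13.4%) reached 10 kb, and the longest measured 58200 bp. Over the 747 members of the testis, the median run was 4600 bp, 137 runs (18.3%) reached 10 kb, and the longest measured 45000 bp. Runs were longer for shared members, with medians of 4600 bp in the testicular part and 5200 bp in testis. For members of a single tissue they were 3000 bp in the testicular part and 4200 bp in testis. Mostly Polycomb members lay in runs with medians of 4600 bp in the testicular part and 5200 bp in testis, and mostly bivalent ones in runs of 3600 bp in the testicular part and 4400 bp in testis. Some runs are shared by several members and were not counted separately here, so the runs are not independent of each other.

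**Figure D3:**
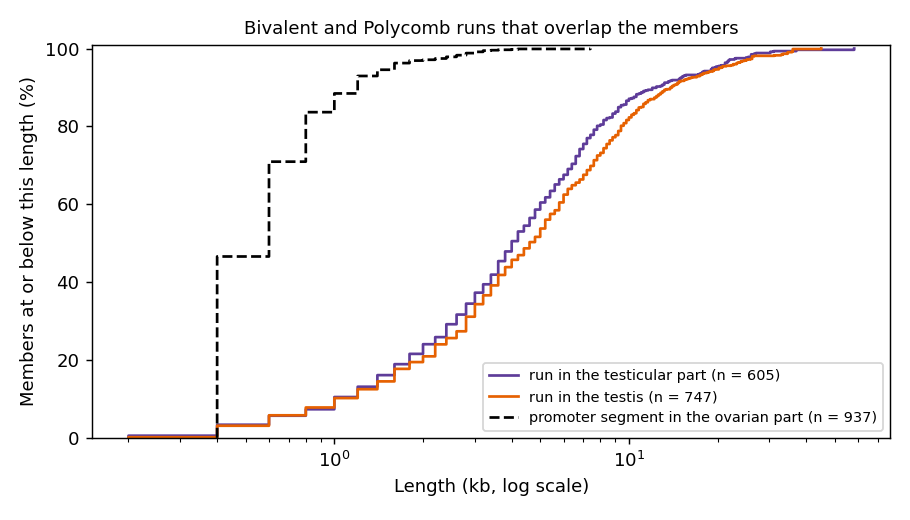
Cumulative percent of members by length in kb on a log axis, for the member's promoter segment in ovarian tissue (dashed, n = 937) and for the bivalent or Polycomb run that overlaps it in the testicular part (purple, n = 605) and in testis (orange, n = 747). Segments had a median of 600 bp, and runs had medians of 4000 bp in the testicular part and 4600 bp in testis.

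Within 50 kb on each side, less of the surroundings was active around members than around the other ovarian promoters in every tissue. The median share of promoter and active enhancer bases around members was 4.6% in ovarian tissue, 3.6% in the testicular part and 3.2% in testis. Around the other ovarian promoters it was 8.4% in ovarian tissue, 9.6% in the testicular part and 10.6% in testis. The share was lower in the testicular part than in ovarian tissue around 610 members (65.1%), against 5452 of the others (36.9%). It was lower in testis than in ovarian tissue around 589 members (62.9%), against 4310 of the others (29.1%). In testicular tissue the windows take in the rest of the runs that overlap the members, so the values there are a description only. Median Polycomb coverage around members was 5% in ovarian tissue, 9% in the testicular part and 14.2% in testis, against 0% in ovarian tissue, 0.2% in the testicular part and 2.8% in testis for the others.

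In members of a single tissue, the lowest active share stood in the tissue that chose them. The windows start at the member's edge and take in the rest of the run there. The median run was 3000 bp in the testicular part and 4200 bp in testis. This order is therefore a description only. Around members of the testicular part only, the median active share was 5.3% in ovarian tissue, 3.9% in the testicular part and 6.2% in testis. Around members of the testis only, it was 5.7% in ovarian tissue, 5.5% in the testicular part and 3.1% in testis. Shared members had 3.8% in ovarian tissue, 2% in the testicular part and 2% in testis. Distal enhancers, taken as active enhancer segments with no promoter or bivalent promoter of any tissue within 2 kb, numbered on average 1.67 in ovarian tissue, 1.37 in the testicular part and 1.3 in testis within 50 kb of a member. Around the other ovarian promoters the averages were 2.49 in ovarian tissue, 2.57 in the testicular part and 2.72 in testis. No distal enhancer was found around 364 members (38.8%) in ovarian tissue, 432 (46.1%) in the testicular part and 468 (49.9%) in testis, against 23% of the others in ovarian tissue, 22.8% in the testicular part and 21.8% in testis.

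Members occurred on every scaffold with more than 1 Mb, at unequal rates. Among scaffolds 1 to 17, the share of ovarian promoters that were members was highest on scaffold 2, with 123 of 1198 (10.3%, Wilson 95% interval 8.67 to 12.1%), followed by scaffold 13 with 62 of 640 (9.69%) and scaffold 14 with 74 of 780 (9.49%). It was lowest on scaffold 12, with 40 of 1373 (2.91%, 2.15 to 3.94%), and close to that on scaffold 17 with 2.99% and scaffold 10 with 3.04%. On scaffold 14, 47 of the 74 members were members of the testis only, against 5 of the testicular part only. Over all 937 members these counts were 332 and 190. Repressive states covered 13.6% of scaffold 14 in testis and 7.98% in the testicular part, and their part in these counts was not tested. Scaffold 12 had more of its bases repressed than scaffold 13 in each tissue, with 9.91% in ovarian tissue, 8.06% in the testicular part and 13.5% in testis, against 4.4% in ovarian tissue, 4.44% in the testicular part and 7.89% in testis on scaffold 13, so the order of scaffolds by members was not the order by repressed area.

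Scaffolds 19 and 20, both small, stood apart. On scaffold 19 (3.78 Mb), 19 of 53 ovarian promoters were members (35.8%, 24.3 to 49.3%), and on scaffold 20 (0.856 Mb), 9 of 9 were (100%, 70.1 to 100%). Both are rich in repressive states in every tissue, with 45.6% of bases on scaffold 19 in ovarian tissue, 44.8% in the testicular part and 56% in testis, and 73.5% on scaffold 20 in ovarian tissue, 76% in the testicular part and 82.8% in testis. All 9 members on scaffold 20 were covered over 100% in both testicular tissues, in runs of 17800 to 26000 bp in the testicular part and 14200 to 34600 bp in testis, and 25 to 100% of the 2 kb on each side was repressive in ovarian tissue too. Scaffolds 15 and 18 were left out of the counts above, except where all scaffolds are named. By the same rule scaffold 15 would have added 76 of 432 ovarian promoters, 76 of them through the testicular part and 2 through the testis, and scaffold 18 would have added 15 of 27.

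**Figure D4:**
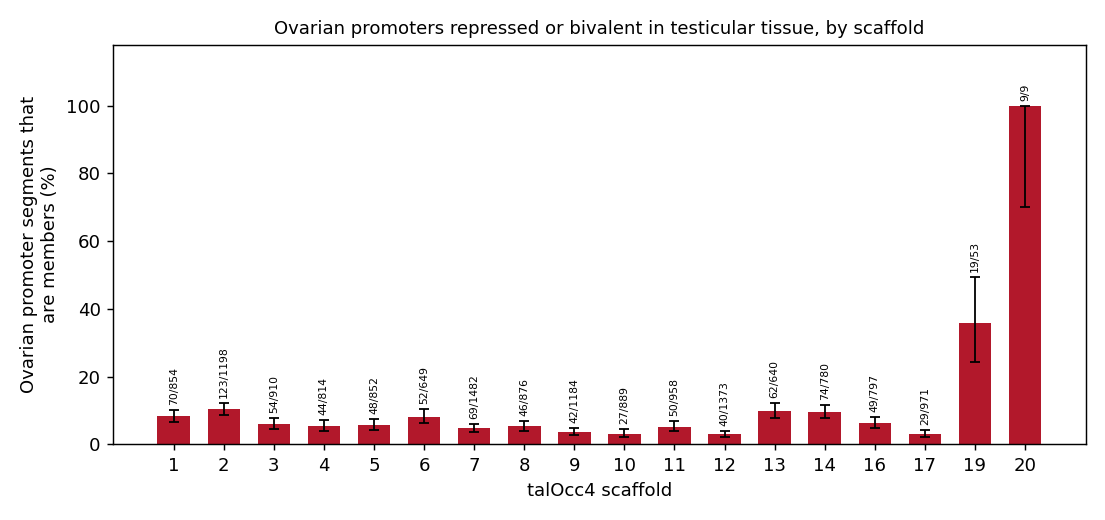
Percent of ovarian promoter segments that were members on each talOcc4 scaffold numbered up to 20, scaffolds 15 and 18 left out. Bars are shares, lines are Wilson 95% intervals for counting error only, and labels give members over ovarian promoters. Scaffolds 1 to 17 lie between 2.91% and 10.3%, scaffold 19 at 35.8% and scaffold 20 at 100%.

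Joined over gaps of at most 20 kb, the 937 members formed 793 groups. Of these, 682 were single members, and 111 groups of at least 2 held 255 members (27.2%). Joined in the same way, 71.6% of all ovarian promoters lay in groups of at least 2, but those are far denser along the genome and the values are not comparable. There were 62 groups of 1 class and 49 of mixed class among the 111. Groups of at least 4 numbered 8 and held 39 members.

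The largest group lies on scaffold 16 at 79815601 to 79851400, with 7 members among 9 ovarian promoters over 35.8 kb. In ovarian tissue, promoter and active enhancer states covered 82.7% of it and repressive states 0%. In the testicular part, active states covered 59.8% and repressive states 21.2%, and in testis active states covered 13.4% and repressive states 78.8%. All 7 members met the limit in testis and 2 of them in the testicular part. Its 3000 bp member at 79824201 to 79827200 had the promoter state over 66.7% in the testicular part and was 53.3% bivalent and 33.3% Polycomb in testis. The member at 79849201 to 79851400 was 63.6% promoter in the testicular part and 90.9% Polycomb in testis.

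A second group of 5 members follows on the same scaffold at 79914001 to 79919400. There the promoter state covered 70.4% in ovarian tissue, the poised enhancer state 48.1% in the testicular part, and Polycomb repression 70.4% in testis. From the start of the first group to the end of the second, 104 kb hold 14 members, 14 of them repressed or bivalent in testis and 3 in the testicular part. Around these 14, active states covered 25.8 to 49% of the 50 kb on each side in ovarian tissue, 12.6 to 36.4% in the testicular part and 3.4 to 8.6% in testis, beside medians over all members of 4.6% in ovarian tissue, 3.6% in the testicular part and 3.2% in testis. These 14 were chosen for the contrast and their windows cover a single locus, so nothing is read from it.

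The group on scaffold 19 at 3582201 to 3594400 holds 5 members over 12.2 kb. The promoter state covered 80.3% of it in ovarian tissue. In the testicular part, 4.92% was Polycomb and none was promoter or active enhancer, and in testis 100% was Polycomb, inside a run of 36000 bp. In the testicular part 4 of the 5 members were undefined throughout, so the promoter state was absent there with little of the Polycomb state in its place. On scaffold 8 at 8630801 to 8642400, 5 members lie over 11.6 kb, of which 1 met the limit in the testicular part and all 5 in testis. The members at 8638401 to 8639600 and 8640401 to 8641000 were 83.3% and 100% promoter in the testicular part, and they were 66.7% and 100% bivalent in testis.

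The fifth group, on scaffold 7 at 97045401 to 97057600, was largely repressed or bivalent in both testicular tissues. All 5 of its members met the limit in the testicular part and 4 in testis. Repressive states covered 0% of it in ovarian tissue, 83.6% in the testicular part and 75.4% in testis. The member at 97051201 to 97051600 was 100% bivalent in the testicular part and 100% promoter in testis, and the member at 97048201 to 97049200 was 100% bivalent in the testicular part, with 60% bivalent and 40% promoter in testis.

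**Figure D5:**
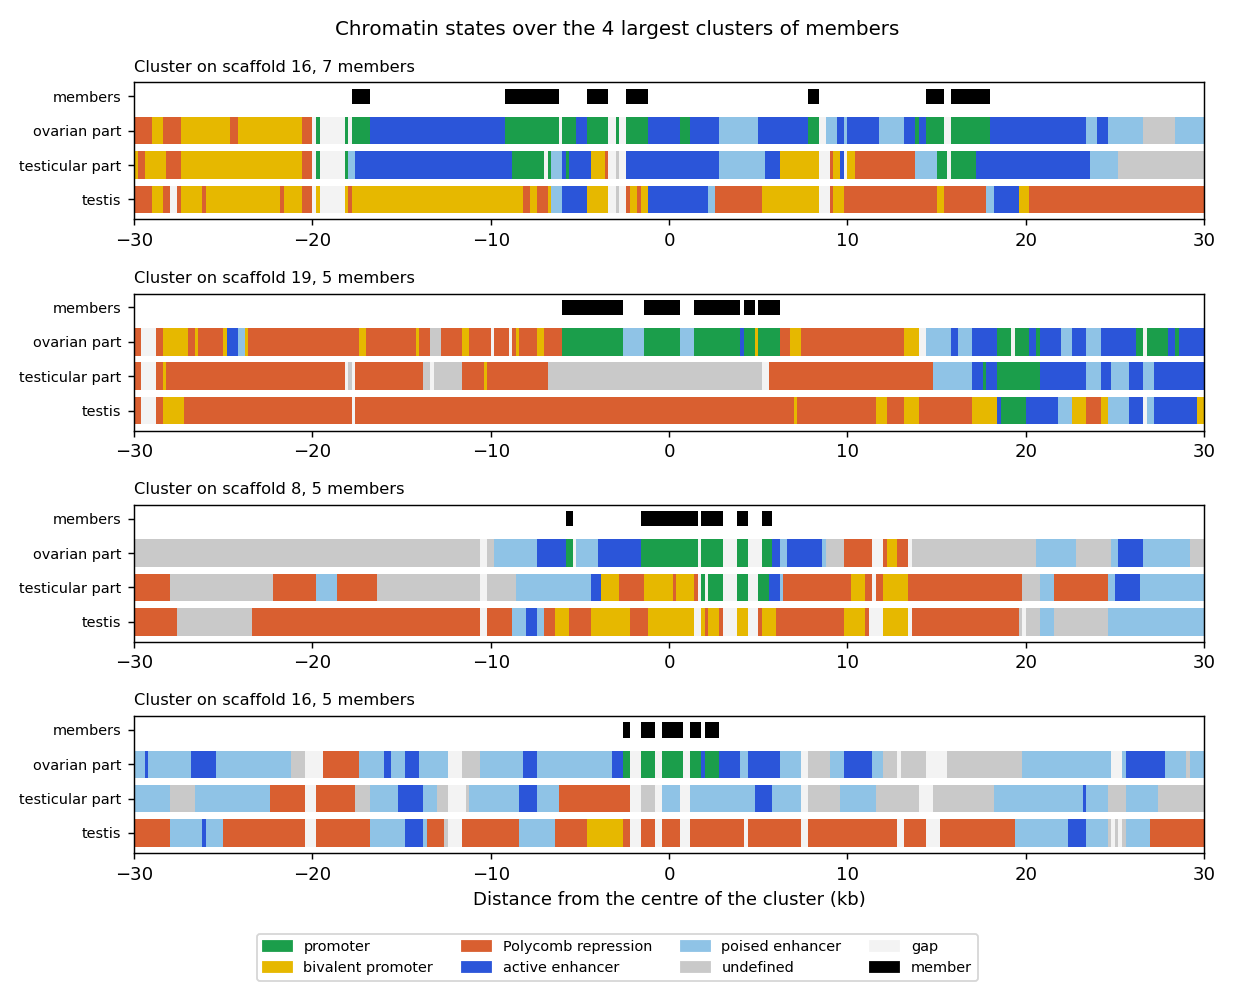
State of each 200 bp bin around the 4 groups with the most members, by distance in kb from the centre of the group, in ovarian tissue, the testicular part and the testis from top to bottom, with members in black. The promoter state (green) of the ovarian part is bivalent (yellow) or Polycomb (orange) over most of the members in testis in all 4. The testicular part differs between groups. Promoter and active enhancer cover 59.8% of the largest group there and 25.9% of the group on scaffold 8. They cover 0% of the group on scaffold 19 and 0% of the second group on scaffold 16.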

How the data were processed

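ChIP-seq was measured in 24 libraries of 3 mole tissues, 8 per tissue (4 marks, 2 replicates per mark), grouped by the tissue named in the labels. Per the labels, each library belongs to 1 deposited segmentation, so the authors combined marks and replicates of a tissue. The deposited tables give a state name per 200 bp bin on talOcc4 and no counts, so there is no depth to weigh and tissues could not be tested against each other. STAR 2.6.1d and mm9, a mouse build, appear in the submitters' processing notes, and no source used here gives the tool or settings behind the mole segmentations.

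Promoter segments of at least 400 bp, scaffolds 15 and 18 left out, were scored by their bases in each state of the other tissues, with 50% as the limit. Flanks of 1, 2 and 10 kb and windows of 50 kb leave out the segment itself. Groups of members were joined over gaps of at most 20 kb. Regions named are the 10 longest members, the 5 groups with most members, the 5 longest members completely covered and mostly Polycomb in both tissues, and segments next to the limit. The members and these rules were chosen with earlier results of these data known. Wilson 95% intervals cover counting only. Scripts used Python 3.11.15, numpy 2.4.6 and pandas 2.3.3 and were tested on simulated data. Genes at members were planned but not computed, since no annotation of talOcc4 was used here. Mouse segmentations were left out.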

Additional observations from a re-analysis of the deposited data

How the results depend on the processing

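Of 81 recomputed values for 9 results, 51 stayed within their margin and 30 moved, and none changed direction. The number of members, 937, was 1452 with no minimum length, 500 from 600 bp, 153 from 1000 bp, 493 for Polycomb repression alone, 615 for the bivalent promoter alone and 415 when both tissues were required. The share of members repressed or bivalent in both tissues, 44.3%, was 40.5% from 1000 bp. The median length of 600 bp was 400 bp where 100% of bases had to be repressed or bivalent. The share with a repressive bin within 2 kb in the ovarian part, 57.1%, was 60.7% with no minimum length, 53.8% from 600 bp, 49% from 1000 bp, 60.8% with all scaffolds kept, 47.2% within 1 kb and 68.3% within 10 kb. The median run in the testis, 4600 bp, was 5200 bp from 600 bp, 7600 bp from 1000 bp, and 5200 bp at a limit of 75% and of 100%. The median active share around members in the ovarian part, 4.6%, was 5.8% from 1000 bp and 4% with all scaffolds kept. The share of members in groups, 27.2%, was 33.4% with no minimum length, 15.7% from 1000 bp, 23.7% at 100%, 23.2% with gaps of 5 kb and 34.5% with gaps of 50 kb. The 138 promoters of the testicular part that were repressed or bivalent in the ovarian part were 236 with no minimum length, 63 from 600 bp, 25 from 1000 bp and 87 at 100%. Among members of the testicular part only, the 65.3% mostly in the promoter state in the testis became 57.4% at 100%, an alternative added after the data had been examined. The causes were not tested, including the fewer or more segments that some rules admit. Ovarian promoters were repressed or bivalent in testicular tissue more often than the reverse in every setting compared. With all scaffolds kept, however, the share of testis promoters repressed or bivalent in the ovarian part was 2.04%, beside 1.04% in the main setting. No paired analysis was possible because the authors deposited 1 segmentation per tissue. Depth is unknown, so calls of short segments cannot be ranked by their reliability.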
